A study of Mus musculus with 10 samples.

Results

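The miRNAs described here come from the hairpin precursors named mir-297, mir-466, mir-467 and mir-669, most of which lie in an intron of the mouse gene Sfmbt2. Members were chosen by name alone: every precursor with one of these 4 prefixes listed in any of the 4 small RNA libraries was taken. They were 79 of 892 precursors listed, or 8.86%, and they carried 77 of 1486 mature miRNA names. By prefix, 6 precursors were mir-297, 29 were mir-466, 16 were mir-467 and 28 were mir-669.

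The study compared cultured adipocyte precursors (APs) from the subcutaneous white adipose tissue of C57BL/6J mice with and without the type 2 cytokine IL-4. The cells had been depleted of CD45+ and CD31+ cells and selected for SCA-1, and IL-4 was added to the growth medium after seeding. Small RNA was sequenced on day 2 from 2 control and 2 IL-4 cultures, and mRNA on day 4 from 3 cultures of each kind. No group carried a genetic change, and control and IL-4 cells differed by the cytokine only, as far as the labels say.

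The cluster inside Sfmbt2 is a tandem repeat array of hairpins that arose in rodents, and its host gene encodes a Polycomb-group protein with MBT domains. Sfmbt2 is an imprinted gene, expressed from the paternal allele and best known for its role in the placenta. A miRNA recognises its targets mainly through the seed, a short stretch near its 5′ end, so copies with the same seed can act on the same mRNAs, and a shift of the 5′ end by a base changes the seed.

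Some copies in the Sfmbt2 cluster are so alike that their names cannot be read as separate molecules, while other names have a sequence of their own. The sequences with most reads, and those of the miRNAs that passed the test below, are printed here 5′ to 3′ from the deposited files, with the seed (bases 2 to 8) in capitals, to show which differ and where.
miR-467a-5p: uAAGUGCCugcauguauaugcg
miR-467b-5p: gUAAGUGCcugcauguauaug
miR-467c-5p: uAAGUGCGugcauguauaugug
miR-467d-5p: uAAGUGCGcgcauguauaugcg
miR-467e-5p: aUAAGUGUgagcauguauaugu
miR-669a-5p: aGUUGUGUgugcauguucaugucu
miR-669f-5p: aGUUGUGUgugcaugugcaugugu
miR-669c-5p: aUAGUUGUguguggaugugugu
miR-669o-5p: uAGUUGUGugugcauguuuaugu
miR-466c-5p: uGAUGUGUgugugcauguacauau
miR-669a-3p: aCAUAACAuacacacacacguau
miR-466a-3p: uAUACAUAcacgcacacauaaga
miR-466b-3p: aUACAUACacgcacacauaaga
miR-467a-3p: cAUAUACAuacacacaccuaca
miR-466g: aUACAGACacaugcacacaca

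The 5p names were rich in alternating U and G, and the 3p names in alternating A and C. In the median 5p member, 52.4% of the steps from base to base were UG or GU (33 names), against 14.3% in the 1409 other miRNAs listed. In the median 3p member, 47.6% of the steps were AC or CA (35 names), against 10% in the others. The miR-467 5p names stood apart, since their seeds held AAGUG in place of such a repeat. The 77 names were 19 to 25 bases long and held 40 seeds, of which 15 belonged to several member names and 38 to no other miRNA listed. The bases AAGUGC at positions 2 to 7 were found in 3 members (miR-467a-5p, miR-467c-5p and miR-467d-5p) and in 4 other miRNAs, among them miR-291a-3p, miR-294-3p and miR-295-3p, which are known from embryonic stem cells. These last 3 had at most 2 reads in any library, while the 3 members together had 634 and 682 reads in control and 689 and 865 in IL-4 libraries. The member sums hold the reads of miR-467a-5p (361 and 478 in control, 451 and 518 in IL-4 libraries). Those reads were also listed under miR-467b-5p, whose seed is UAAGUGC. Whether they carry AAGUGC at positions 2 to 7 is therefore not known. The remaining miRNA with these bases, miR-350-5p, had 790, 1225, 1339 and 1619 reads.

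In the RefSeq annotation of the mouse build GRCm38.p6, to which the submitters' build mm10 corresponds, Sfmbt2 lies at chr2:10370440-10595253 on the plus strand. There, 70 of the 79 precursors fell in its intron 10 (chr2:10461473-10523944, numbered on the 23-exon transcript NM_001198808.1), all on the strand of the gene. They ran from mir-466m at chr2:10466663-10466746 to mir-669h at chr2:10518155-10518279, a stretch of 51617 bases of the 62472-base intron, with a median of 300 bases between neighbouring starts. The middle of the cluster was a repeat. In 11 places a mir-467 hairpin was followed by a mir-466 and then a mir-669 hairpin, at a median of 288 bases (282 to 292) and a further 227 bases (214 to 230), starting with mir-467c and ending with mir-467a-10. Where such units followed each other directly (6 times), the next mir-467 began 1936 bases (1896 to 1952) after the mir-669 start.

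The other precursors lay elsewhere. mir-466q and mir-466k were on chromosome 3, in intron 2 of Tnik and intron 1 of Gm31419, and mir-467g, mir-467f and mir-466i were in introns of Grk4 (chromosome 5), Fxr2 (chromosome 11) and Cdk13 (chromosome 13). Of these, mir-466q lay on the strand of its gene, while mir-466k, mir-467g, mir-467f and mir-466i lay on the opposite strand. mir-297a-1, mir-466j and mir-466f-4 were between genes on chromosomes 7, 10 and 13. The same annotated hairpin matched mir-466c-2 and mir-466c-3, which are identical, so mir-466c-3 was not placed apart. In all, 26 precursors shared their whole hairpin sequence with another, and the 79 held 60 distinct hairpins.

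**Figure D1:**
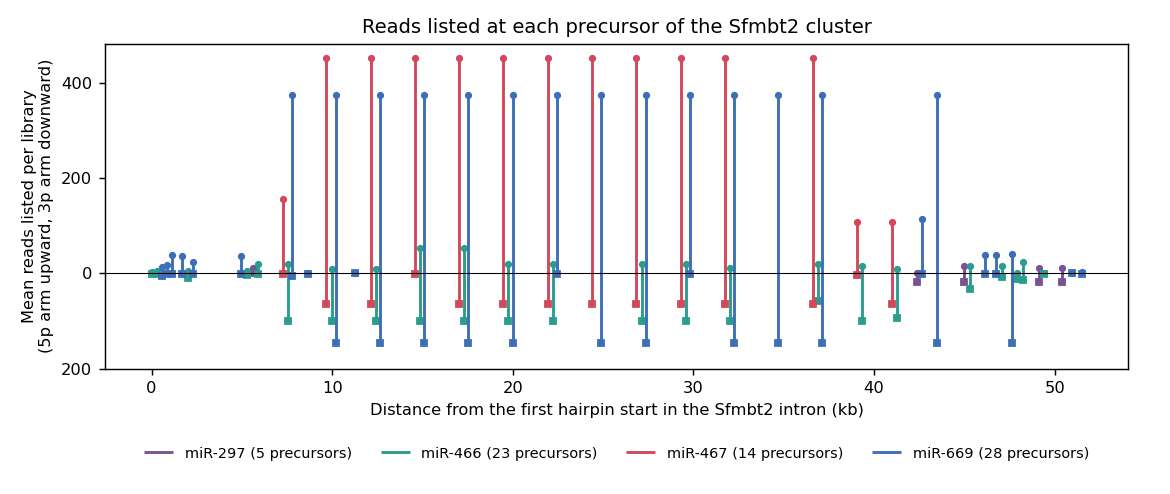
Reads listed at the 70 precursors in the Sfmbt2 intron, by distance (kb) from the first hairpin start; the 5p arm is drawn upward and the 3p arm downward, as the mean over 4 libraries, coloured by prefix. Equal heights of the mir-467a and mir-669a copies in the middle are the same reads listed again at each copy, not separate measurements.

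Because reads that match several hairpins were listed at each, the level of the family depended on how it was counted. The precursor totals of the members summed to 26129 and 39317 reads in control and to 32273 and 38759 in IL-4 libraries. These totals also added each mature name at an arm, so that the same reads entered a precursor repeatedly. With each mature name counted once, the sums were 2894 and 4038 in control and 3478 and 4168 in IL-4 libraries. Names that start within 2 bases of each other at the same arm, or that have the same sequence, can draw on the same reads. Joining them, with the largest count kept for each set, left 60 read sets for the 77 names. Of these sets, 12 joined several names (29 names in all), and 56 had reads. Counted by read set, the members had 1739 and 2242 reads in control and 2007 and 2450 in IL-4 libraries. The summed totals were therefore 15.03 to 17.54 times as large as the sums by read set, which leave out reads under no mature name.

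**Figure D2:**
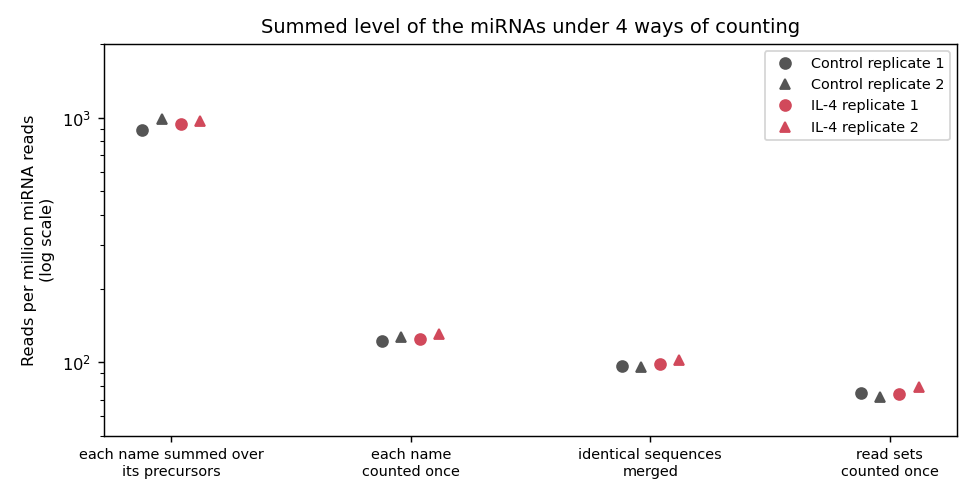
Summed level of the members in each of the 4 libraries, in CPM on a log axis, under 4 ways of counting. CPM is the count scaled to 1000000 miRNA reads of the library, with all miRNAs counted in the same way as the members. Sums over precursors lie between 892 and 986 CPM and read sets between 72.14 and 78.78, while control and IL-4 libraries lie close together under each way of counting.

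On the read set scale, the whole family stood at 75.03 and 72.14 CPM in control and at 73.92 and 78.78 in IL-4 libraries. The 95% Wilson intervals, which cover counting error only, were 71.6 to 78.6 and 69.2 to 75.2 for control and 70.8 to 77.2 and 75.7 to 81.96 for IL-4. The groups overlapped, with means of 73.6 ± 2.05 (SD, n = 2) for control and 76.3 ± 3.44 (SD, n = 2) for IL-4 libraries. Of the 56 sets with reads, 13 to 15 per library reached 1 CPM, where the median of all read sets with reads was 0.836 to 1.16 CPM. The best-covered read set, miR-467a-5p/467b-5p, was in rank 278, 285, 281 and 291 of the 957 to 1025 read sets with reads in the 4 libraries.

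The level was held by few sequences. The most read set was miR-467a-5p/467b-5p, with 361 and 478 reads in control and 451 and 518 in IL-4 libraries. This was 15.6 and 15.4 CPM in control and 16.6 and 16.7 in IL-4 cells, and 20.8% to 22.5% of all member reads in the 4 libraries. The names miR-467a-5p and miR-467b-5p begin 1 base apart, so that these reads were listed under the seed AAGUGCC and under the seed UAAGUGC, and the files do not show which of the 5′ ends was sequenced. Next came miR-669a-5p/669p-5p, 2 names for the same sequence, with 289 and 436 reads in control and 361 and 409 in IL-4 libraries. The 2 sets together held 37.4% to 40.8% of member reads, and the top 12 sets 81.8% to 85.0%. The order of the 56 read sets was similar in all libraries (Spearman's rho across sets 0.91 to 0.94 for the 6 library pairs), a description over sets that share libraries and depth.

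**Figure D3:**
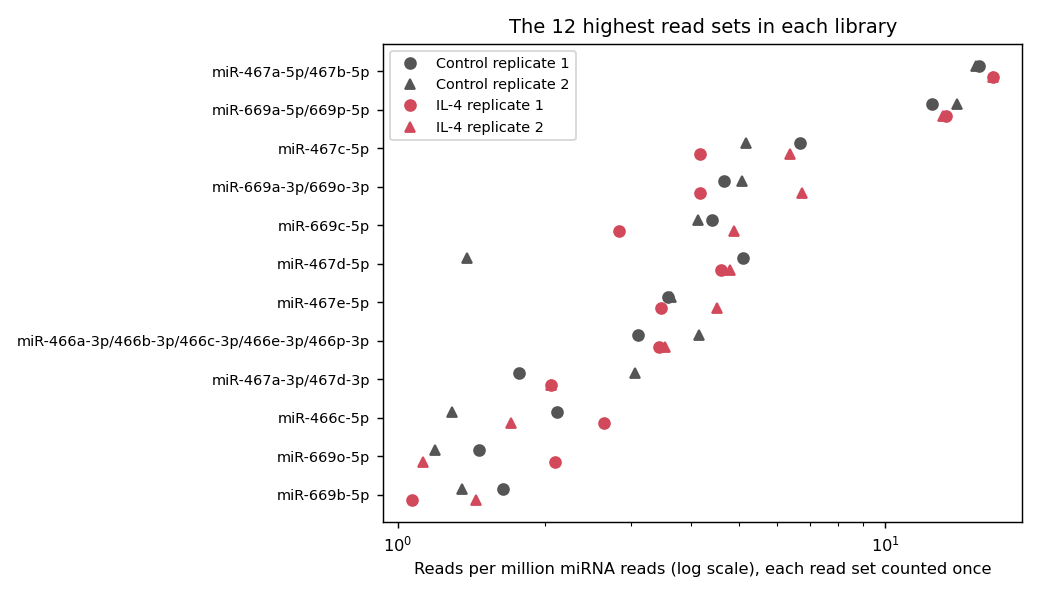
CPM (log axis) of the 12 highest read sets, with grey points for control and red points for IL-4 libraries and shapes for the replicates. The points of miR-467a-5p/467b-5p lie between 15.4 and 16.7, and miR-467d-5p in control replicate 2, at 1.38, lies apart from its other 3 libraries.

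The other miR-467 members were lower and less even. miR-467c-5p had 155 and 161 reads in control and 113 and 198 in IL-4 libraries. miR-467e-5p had 83 and 113 in control and 94 and 140 in IL-4 libraries. miR-467d-5p had 118 and 43 reads in control and 125 and 149 in IL-4 libraries. It was thus low in control replicate 2 only, 3.68 times lower in CPM than in control replicate 1, whereas the 2 IL-4 libraries differed by 1.04 times. miR-467c-5p and miR-467d-5p share the seed AAGUGCG and together held 15.70% and 9.099% of member reads in control and 11.86% and 14.16% in IL-4 libraries. No 95% exact binomial interval of such a share of member reads reached more than 2.38 percentage points beyond it.

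Among the miR-669 members after miR-669a-5p, the opposite arm miR-669a-3p/669o-3p had 108 and 158 reads in control and 113 and 210 in IL-4 libraries. miR-669c-5p had 102 and 128 in control and 77 and 152 in IL-4 libraries. Scaled to CPM, both were lowest in IL-4 replicate 1 and highest in IL-4 replicate 2. The seed GUUGUGU, shared by miR-669a-5p, miR-669p-5p, miR-669f-5p and miR-669l-5p, held 18.61% to 21.01% of member reads.

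Of the miR-466 members, the highest set was the 3p set of miR-466a, 466b, 466c, 466e and 466p, with 72 and 129 reads in control and 93 and 110 in IL-4 libraries. Its names begin 1 base apart and so carry the seeds AUACAUA and UACAUAC. miR-466c-5p followed with 49 and 40 reads in control and 72 and 53 in IL-4 libraries. All miR-466 sets together made up 16.2% and 16.5% of member reads in control and 18.6% and 13.4% in IL-4 libraries, against 39.9% to 43.9% for miR-467, 36.6% to 41.0% for miR-669 and 1.80% to 2.54% for miR-297.

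Read sets listed only at precursors in the Sfmbt2 intron held 97.7% to 98.3% of the member reads. The 7 sets found only at the precursors elsewhere had 23 and 27 reads in control and 36 and 27 in IL-4 libraries, 1.10% to 1.79% of the total, most of them under miR-466i-5p and miR-466k. miR-466q had none in any library. Nor had miR-466l-5p, miR-669i and miR-669j, whose hairpins lie in the cluster. The mir-466q hairpin did hold reads under no mature name, 67 and 47 in control and 37 and 42 in IL-4 libraries. The shares given here cover only reads listed under a mature name. At these depths 3 reads correspond to 0.0936 to 0.126 CPM by name, the level that a count of 0 allows.

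The arms of the hairpins had unequal reads, and counted by hairpin the lean differed between the prefixes. Across the family, the 5p arm held 81.9% and 75.6% of member reads in control and 79.8% and 78.9% in IL-4 libraries. Of the 68 precursors with a named miRNA on both arms, 40 had more 5p than 3p reads in all 4 libraries, 17 had more 3p reads, and 11 were mixed. Of the mir-467 precursors 13 of 14 leaned to 5p, and of the mir-669 precursors 23 of 26. Counted by hairpin, the mir-466 precursors went the other way, with 15 of 24 leaning to 3p and 4 to 5p. Most of the 15, however, drew on the same 3p read set (72 and 129 reads in control, 93 and 110 in IL-4 libraries). Their 5p reads were split between names. The hairpin count thus does not show the lean of the miR-466 read sets with each counted once, which was not computed. Since hairpins share their reads, these counts of precursors are not independent observations.

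At mir-467a-1, the 5p arm took 89.8% and 83.4% of the arm reads in control and 89.0% and 89.0% in IL-4 libraries (95% exact binomial intervals from 80.1% to 92.6% over the 4 libraries). At mir-669a-1 the 5p share was 72.8% and 73.4% in control and 76.2% and 66.1% in IL-4 libraries (62.2% to 79.9%). At mir-466b-1 it was 21.7% and 14.6% in control and 18.4% and 12% in IL-4 libraries (6.87% to 31.6%). Against the same 3p reads, the 5p share at mir-466c-1 was 40.5% and 23.7% in control and 43.6% and 32.5% in IL-4 libraries. The reads of all these hairpins are shared with other copies, so the values are ratios of listed reads and not the arm use of a single hairpin. Their intervals do not cover this sharing. The mir-467d hairpin was the exception among mir-467, because its 5p share was 74.2% in control replicate 1, 69.1% and 70.0% in the IL-4 libraries, and 31.2% in control replicate 2. In that library miR-467d-5p was at its lowest and miR-467a-3p/467d-3p at its highest, with 95 reads against 41, 56 and 64. The 3p reads there are shared with the mir-467a copies.

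None of the members with most reads passed the test between IL-4 and control. Of 640 miRNAs tested with edgeR's quasi-likelihood test, 42 were member names. The call asked for a change beyond 1.5-fold together with p under 0.05, before adjustment. No member was called higher, where 4.53% of all miRNAs tested were, and 2 members (4.76%) were called lower, where 1.56% of all tested were and 6.09% were called in either direction. At an adjusted p under 0.05, the reported edgeR fit called no member and no miRNA at all, and 2 members and 39 miRNAs had an unadjusted p under 0.05. Other edgeR settings called some miRNAs at that threshold, 6 with library totals as the scale and 16 without the filter, but no member. DESeq2 called no member at an adjusted p under 0.05 and 12 miRNAs in all. The median log2 fold change of the 42 names was -0.19, with 14 above 0 and 28 below, and that of all 640 was -0.02. Joined to read sets, 12 of 29 were above 0 and 17 below. For 10 of the 42 names (23.8%) the control and IL-4 libraries did not overlap, where 34.5% of all miRNAs tested were without overlap.

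**Figure D4:**
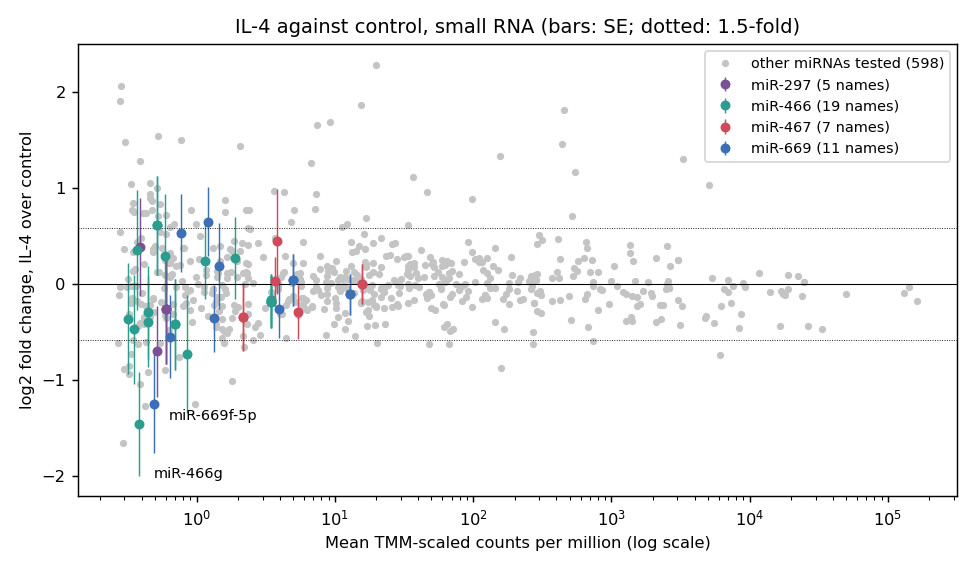
log2 fold change of IL-4 over control against mean TMM-scaled CPM (log axis) for the 640 miRNAs tested, with the members coloured by prefix, bars of 1 SE and dotted lines at a 1.5-fold change. The members with most counts lie near 0, and the 2 named points, miR-466g and miR-669f-5p, lie among the lowest counts.

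miR-467a-5p and miR-467b-5p had a fold change of 0.997 (log2 fold change -0.00, SE 0.21), with a 95% interval of 0.707 to 1.41. On the plain CPM scale given above, both IL-4 libraries lay above both controls. After TMM scaling, which the test uses, the groups overlapped, with 15.9 and 15.4 CPM in control and 16.5 and 14.6 in IL-4 libraries. For miR-669a-5p and miR-669p-5p the log2 fold change was -0.11 (SE 0.22, 95% interval -0.63 to 0.40). That of miR-467c-5p was -0.29 (SE 0.28), of miR-669a-3p and miR-669o-3p 0.04 (SE 0.27), of miR-669c-5p -0.27 (SE 0.30) and of miR-467e-5p 0.02 (SE 0.25). miR-466a-3p and miR-466e-3p stood at -0.17 (SE 0.28). None of these passed the call, with adjusted p-values of 0.976 to 0.990 by edgeR's quasi-likelihood test.

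The 2 members called lower had few reads. miR-466g, from a hairpin at chr2:10514595-10514674, had 12 and 19 reads in control and 4 and 9 in IL-4 libraries, all IL-4 values being below the controls. Its log2 fold change was -1.46 (SE 0.54, 95% interval -2.74 to -0.19; unadjusted p = 0.0302, adjusted p = 0.731 by edgeR's quasi-likelihood test). miR-669f-5p, from chr2:10467229-10467349, had 20 and 16 reads in control and 7 and 11 in IL-4 libraries, again without overlap. Its log2 fold change was -1.25 (SE 0.52, 95% interval -2.48 to -0.02; unadjusted p = 0.0476, adjusted p = 0.780 by edgeR's quasi-likelihood test). It shares its seed with miR-669a-5p, which had 289 to 436 reads per library.

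Neither call held by DESeq2, with log2 fold changes of -1.48 for miR-466g and -1.27 for miR-669f-5p, or when any of the 4 libraries was left out, and with library totals as the scale miR-669f-5p was not called (log2 fold change -1.13). Without them in turn, the log2 fold change of miR-466g lay between -1.95 and -1.17 and that of miR-669f-5p between -1.58 and -0.82. The value of miR-467d-5p depended on which control libraries were used. Over all libraries its log2 fold change was 0.44 (SE 0.55, unadjusted p = 0.446 by edgeR's quasi-likelihood test). Without control replicate 2 it was -0.22 (unadjusted p = 0.570), and without control replicate 1, which left the low library as the sole control, 1.68 (unadjusted p = 0.00156, edgeR). In that fit the single control has no spread of its own and is assumed to vary as the IL-4 pair does.

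For comparison, the 13 miRNAs of the H19X locus had a median log2 fold change of 1.30, and 12 of them were called higher. The paper had picked out this locus because its miRNAs rose with IL-4 in these same libraries, so its high values were known beforehand. The 89 miRNAs tested from the imprinted region between Dlk1 and Dio3 had a median of 0.02, with none called higher and 3 called lower. The differences of the members from these groups were not tested. Markers of blood cells, endothelium and mesenchyme showed what the small RNA libraries held. Together, 7 blood cell miRNA names came to 0.905 to 1.16 CPM, most of it miR-142a-5p (0.336 to 0.715) and miR-150-5p (0.250 to 0.504). miR-142a-3p and miR-223-3p had at most 3 reads in any library, and miR-223-5p, miR-511-5p and miR-511-3p were at 0. The mRNA libraries of day 4, in contrast, held macrophage markers at a summed 3845 to 5000 FPKM in control. Whether the cultures of the 2 assays differed in blood cells was not tested. The 2 arms of endothelial miR-126a came to 154 to 227 CPM. The 5 mesenchymal names came to 139557 and 194615 CPM in control and 141035 and 197563 in IL-4 libraries, most of it miR-143-3p. In both groups replicate 2 was the higher.

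The host gene was among the lowest genes tested in the mRNA libraries on day 4. Sfmbt2 had 58, 42 and 38 expected counts in control and 49, 40 and 41 in IL-4 libraries, each of which held 28526782 to 29057787 counts. Per length, this was 0.26, 0.21 and 0.17 FPKM in control and 0.25, 0.18 and 0.18 FPKM in IL-4 libraries, where the median gene tested had 8.13 FPKM and 3.73% of genes tested were lower than Sfmbt2. The groups overlapped, with normalized counts of 43.7 ± 10.2 (SD, n = 3) for control and 45.8 ± 5.72 (SD, n = 3) for IL-4. Its log2 fold change was 0.07 (SE 0.21; adjusted p = 0.829 by edgeR's quasi-likelihood test). These counts come from polyadenylated mRNA, and the intron that carries the hairpins was not measured. The miRNAs were read on day 2 and the mRNA on day 4, in different libraries, so no ratio between them was formed.

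Of the listed partners and relatives of SFMBT2 in the Polycomb group, 31 genes with Sfmbt2 itself, 30 could be tested. With IL-4, 3 were higher (10%, where 19% of all genes tested were higher) and 6 were lower (20%, where 18.4% of all were lower). The median log2 fold change of the list was -0.07, and that of all 14009 genes 0.00. Among the MBT-domain genes, Sfmbt1, the closest relative of Sfmbt2, had 1170, 1373 and 1239 counts in control and 845, 845 and 780 in IL-4 libraries. All its IL-4 libraries were lower than the controls, and it fell by 0.46 on the log2 scale (SE 0.09; adjusted p = 0.00372 by edgeR's quasi-likelihood test). L3mbtl3 fell by 0.60 (SE 0.11; adjusted p = 0.00418, edgeR). L3mbtl1 had at most 2 counts in any library and was not tested.

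Of the subunits of Polycomb repressive complex 1 (PRC1), 2 chromobox genes moved in opposite directions. Cbx7 rose by 0.44 on the log2 scale (SE 0.14; adjusted p = 0.0435, edgeR), while Cbx6 fell by 0.25 (SE 0.05; adjusted p = 0.00533, edgeR). Pcgf5, which defines a variant PRC1, rose by 0.49 (SE 0.08; adjusted p = 0.00244, edgeR). Rybp, a subunit of variant PRC1, fell by 0.28 (SE 0.07), and Phc1, a subunit of canonical PRC1, fell by 0.23 (SE 0.07), at adjusted p-values of 0.0126 and 0.0306 by edgeR's quasi-likelihood test. Scml4 rose by 1.21 (SE 0.36; adjusted p = 0.0307, edgeR) from 7, 11 and 14 counts to 29, 23 and 15, a low gene on which the lowest IL-4 library came within 1 count of the highest control. In PRC2, the methyltransferase gene Ezh2 fell by 0.45 (SE 0.07; adjusted p = 0.00115, edgeR), with 11.6 to 12.9 FPKM in control and 7.61 to 8.21 in IL-4 libraries. Sfmbt1, L3mbtl3, Cbx6 and Ezh2 stayed lower, and Pcgf5 higher, in each alternative run, whereas with library totals as the scale 15 genes of the list were lower and 2 higher. That scale moved the median log2 fold change of all genes by -0.17. Scml4 and Cbx7 were no longer called when control replicate 1 or 2 or IL-4 replicate 4 or 5 was left out, which left 1 gene higher. Cbx7 was also not called without control replicate 3, Phc1 not without control replicate 1 or 2 or IL-4 replicate 5, and Rybp not without control replicate 1. Without IL-4 replicate 6 the list had 6 genes higher and 8 lower.

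**Figure D5:**
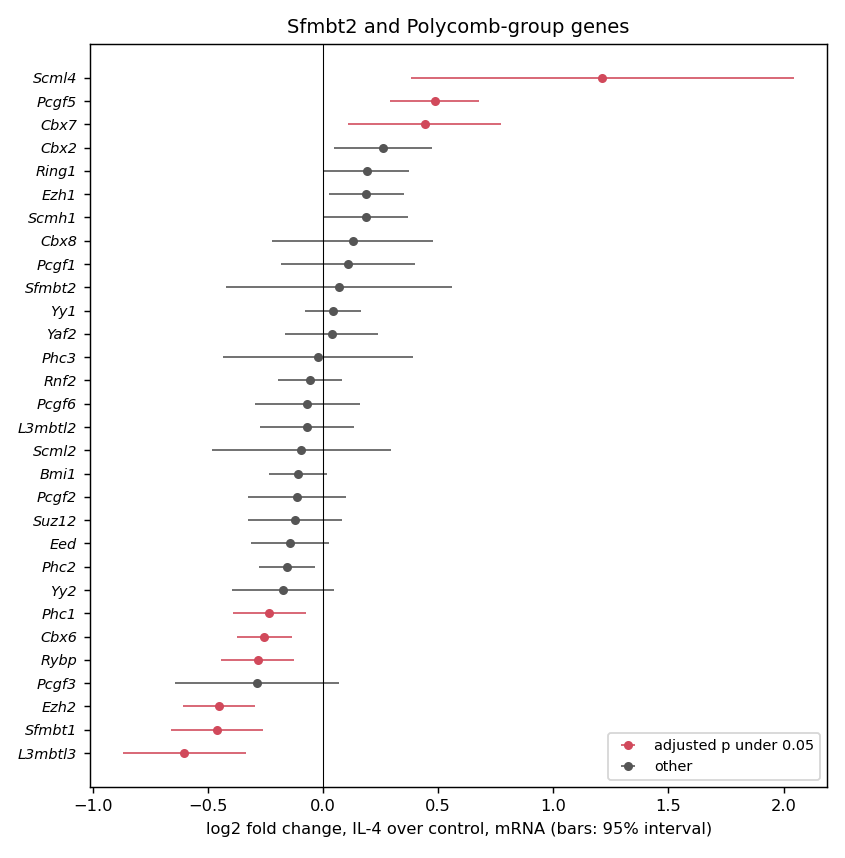
log2 fold change of IL-4 over control in the mRNA libraries for Sfmbt2 and the other Polycomb-group genes tested (30 in all), with 95% intervals; red points have an adjusted p under 0.05. Sfmbt2 lies at 0.07 with an interval across 0, between 3 red genes to the right and 6 to the left.

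The mRNA libraries also held RNA of other cells, which changed with IL-4. Of 10 macrophage markers, 8 were lower and 1 was higher, and their summed level was 3845 to 5000 FPKM in control and 1538 to 2025 FPKM in IL-4 libraries, with Lyz2 the highest. All 10 AP markers were detected (6612 to 7034 FPKM in control and 7443 to 8167 FPKM in IL-4 libraries), 6 of them higher and 2 lower. The collagen genes Col1a1 and Col1a2 made up most of this sum. Dpp4 was the lowest, at 0.22 to 0.4 FPKM in control and 0.36 to 0.39 in IL-4 libraries. The 5 endothelial markers summed to 11.1 to 11.6 FPKM in control and 8.51 to 9.77 FPKM in IL-4 libraries, 1 of them higher and 2 lower. The 4 markers of mature adipocytes came to at most 0.41 FPKM, and none could be tested. The part of these cells in the changes of the Polycomb list was not tested, and fewer cells of a type and less RNA per cell cannot be told apart in such bulk libraries.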

How the data were processed

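Small RNA was sequenced by the study from 4 libraries of APs and mRNA from 6. Per the study's methods, small RNA libraries were made with the TruSeq Small RNA kit and the reads were aligned in turn to the mouse genome, miRBase 21 and Rfam 9.1 and counted with the miRDeep2 Quantifier module. The deposited files give raw read counts by precursor and arm, and deposited arm cells that hold several counts were split at their separators. A read that fits several precursors was listed at each by the authors. The deposited mRNA files give expected counts, which the authors estimated with Bowtie2 and RSEM, and FPKM, which they scaled by length and library size.

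A precursor or gene missing from a library was taken as 0, and of the counts of a mature name found at more than 1 precursor the largest was kept. Names were joined into read sets after the data were seen, where their starts lay within 2 bases at the same arm or their sequences were identical. CPM refers to all miRNA reads of the library, counted in the same way as the members. These totals were 23790821 to 32061504 by name and 23176790 to 31098050 by read set. PCR duplicates cannot be told apart in these reads, so intervals cover counting error only. Expected counts were rounded, and 1 mRNA row without a gene number was left out (0.00016% of counts). Counts were filtered with filterByExpr (minimum count 10, minimum total 15), scaled with TMM and compared with edgeR 4.0.16 (R 4.3.3) by the quasi-likelihood test, without a replicate block, with Benjamini-Hochberg adjustment over all features tested. miRNAs were called with the cut-offs of the study's methods (p under 0.05 and beyond 1.5-fold), but with edgeR's p in place of DESeq2's on quantile-normalized values. For genes the threshold was an adjusted p under 0.05, at any fold. Alternatives used DESeq2 1.42.0, limma 3.58.1, other scalings and filters, other ways of counting, and each library left out. The procedure was tested on simulated counts of the 640 miRNAs, with known changes planted in many of them. There, an unadjusted p under 0.05 with a change beyond 1.5-fold recovered 70.3% of 2-fold and 98.1% of 4-fold changes. Of those calls, 11.6% fell on unchanged miRNAs, a share that depends on how many changes were planted and does not carry over to these data. Recovery was not computed for the members alone, whose median SE was 0.43 against 0.28 for all miRNAs tested. Hairpin positions were taken from RefSeq on GRCm38.p6 after the deposited hairpin sequences were compared with the genome there.

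The members and gene lists were chosen with earlier results of these data known. Named in the text are members called, the 12 member names with the highest mean level, members that make up 5% or more of their seed group, Sfmbt2 and list genes with an adjusted p under 0.05, and precursors at the ends of the cluster or outside Sfmbt2. Of each seed group, the main ones are given, and 1 further gene planned for the Polycomb list is not reported here. Nothing in the labels says that small RNA cultures came from separate animals, so p-values measure the spread between these libraries. Fold changes and p-values of the authors were not used.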

Additional observations from a re-analysis of the deposited data

How the results depend on the processing

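The count of members called lower was 2 in the reported fit, 0 with DESeq2, 1 (miR-466g) with library totals as the scale, 3 with limma on quantile-normalized log2(count + 1), which added miR-297b-5p (log2 fold change -0.69), and between 0 and 1 when a library was left out, the 1 being miR-466h-5p without IL-4 replicate 1. The count called higher was 0 in the reported fit, 1 (miR-467d-5p, log2 fold change 0.63, unadjusted p = 0.00680, adjusted p = 0.0837 by edgeR) with the replicate number as a block, and 0 to 1 when a library was left out (miR-467d-5p without control replicate 1, miR-466a-5p without IL-4 replicate 2). The labels do not say what a shared replicate number means and there are only 2 pairs, whose same-numbered libraries deviated together with a correlation of 0.46, so the numbers were not taken to pair the libraries. No member had an adjusted p under 0.05 in any of the 13 alternatives. Over all miRNAs, edgeR called 0 at that threshold in the reported fit, 6 with library totals, 16 without the filter and 31 with the replicate number as a block. The summed level of the members, 126 CPM with each name counted once (mean of 4 libraries), was 947 summed over precursors, 98.1 with identical sequences merged and 74.97 by read sets, and the ratio of IL-4 to control stayed between 1.02 and 1.04. Library totals moved the median log2 fold change of the miRNAs by 0.11 and upper-quartile scaling by -0.15, and that of the members ranged from -0.35 to 0.05, above 0 only without control replicate 2. The causes of these shifts were not tested, beyond the counting itself. The log2 fold change of Sfmbt2 ranged from -0.10 to 0.27 with no call in 10 alternatives. Of the Polycomb list, 6 genes were lower and 3 higher in the reported fit, 15 were lower with library totals, 14 were lower and 1 higher by limma on log2(FPKM + 1), and 4 to 8 were lower and 1 to 6 higher when a library was left out. Without control replicate 1, 1 gene of the list was higher, as without control replicate 2, IL-4 replicate 4 or IL-4 replicate 5, and 6 were higher without IL-4 replicate 6. The depth of 23790821 to 32061504 reads limits miRNAs of some 10 reads, such as miR-466g, for which 95% intervals of the fold change spanned 0.150 to 0.878.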
